A study of Mus musculus with 4 samples.

Results

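Lamp5 and Ndnf neurogliaform interneurons of the mouse hippocampus were picked out of single-nucleus RNA counts by their marker transcripts. Barcodes with at least 200 detected genes and at most 5% mitochondrial UMIs (unique molecular identifiers, each standing for 1 captured transcript) were kept as nuclei. A nucleus was a member with at least 2 summed UMIs of the GABA genes Gad1, Gad2 and Slc32a1 and at least 2 summed UMIs of Lamp5, Ndnf, Hapln1 and Sema3c. It also had to hold fewer than 3 Sst UMIs and no UMI of Pvalb or Vip. This left 266 members of 19475 kept nuclei. The WT library held 63 of them, the EKO library 67, the P301S library 79 and the P301S/EKO library 57. These transcripts chose the members, so their levels are given as a description only.

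The hippocampi came from B6 mice at 9 months, and each genotype was measured in 1 library of pooled tissue: 7 hippocampi for each of WT, EKO and P301S/EKO and 8 for P301S. In EKO mice the gene of apolipoprotein E, Apoe, is lost. P301S stands for a transgene of human tau with the P301S change, and P301S/EKO carries both alterations. The study asked about tau-related neurodegeneration with and without apoE, and its other 2 genotypes were not analysed here. The labels do not name the tau line; in a widely used P301S line the transgene is driven by the mouse Prnp promoter. With 1 pooled library per genotype no difference between genotypes has a replicate check, and nothing was tested. All intervals are 95% and hold counting error alone.

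Neurogliaform cells and the closely related ivy cells are GABA-releasing interneurons with small, dense axons. They release GABA into the space around them, which acts slowly and diffusely on many neighbouring dendrites through GABA-A and GABA-B receptors. In the hippocampus, ivy cells and part of the neurogliaform cells arise from the medial ganglionic eminence, keep transcription factors of that origin such as Lhx6 and Nkx2-1, and often make nitric oxide synthase (Nos1) and neuropeptide Y (Npy). Other neurogliaform cells arise from the caudal ganglionic eminence and often carry Ndnf and reelin (Reln). Lamp5 (chromosome 2, 136052239 to 136069917, plus strand, GRCm38) encodes a vesicle membrane protein, and Ndnf (chromosome 6, 65671590 to 65712326, plus strand) a secreted protein. Hapln1 (chromosome 13, 89539796 to 89611652) encodes a link protein of the extracellular matrix, and Sema3c (chromosome 5, 17574281 to 17730268) a secreted guidance factor.

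Wherever 4 values are given they stand for WT first, then EKO, then P301S and last P301S/EKO. The files held 6145, 5982, 3156 and 6767 barcodes and 14251675, 10283013, 8369762 and 11358953 UMIs. Between 73 and 147 barcodes of a library also occurred in another library, and no member's barcode was that of a member elsewhere. Members held a median of 2446, 1723, 2426 and 1557 UMIs, and other GABAergic nuclei 2338.5, 1685, 2477.5 and 1741. Summed over members this came to 193285, 148888, 268498 and 109333 UMIs, so that both libraries without Apoe were shallower than both with it. A rule on UMI numbers finds fewer nuclei in a shallower library.

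Members made up a larger share of all nuclei in P301S than in the other libraries, and their shares of GABAergic nuclei had overlapping intervals. Their share of kept nuclei by library was 1.14% (interval 0.881% to 1.46%), 1.23% (0.952% to 1.56%), 2.69% (2.14% to 3.35%) and 1.02% (0.775% to 1.32%). With all UMIs the P301S interval lay above the other intervals. GABAergic nuclei as a whole, those with at least 2 UMIs of the GABA genes, were also most frequent in P301S, at 9.39%, 7.91%, 16.2% and 6.92% of kept nuclei. Of GABAergic nuclei, members made up 12.2% (9.49% to 15.3%), 15.5% (12.2% to 19.3%), 16.6% (13.4% to 20.3%) and 14.8% (11.4% to 18.7%). With each nucleus thinned to 1000 UMIs and 129, 1060, 0 and 1247 shallower nuclei left out, 14, 20, 24 and 24 members remained. They were then 0.260% (0.142% to 0.437%), 0.455% (0.278% to 0.701%), 0.818% (0.525% to 1.22%) and 0.554% (0.356% to 0.824%) of nuclei. At this matched depth the P301S interval overlapped those of EKO and P301S/EKO. Of GABAergic nuclei they were 6.93%, 9.01%, 11.6% and 12.9%.

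**Figure D1:**
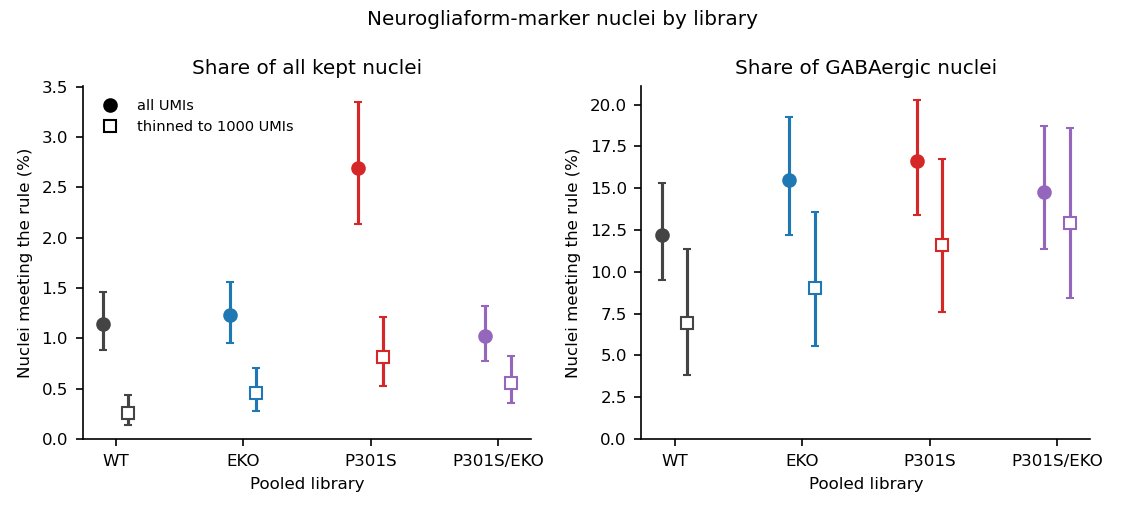
Nuclei meeting the rule as a percentage of all kept nuclei (left) and of GABAergic nuclei (right) in each pooled library. Filled circles use all UMIs, open squares use nuclei thinned to 1000 UMIs, and bars are 95% Clopper-Pearson intervals. P301S is highest on the left at 2.69%, while the 4 filled circles on the right lie between 12.2% and 16.6% with overlapping bars.

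Members differed in which marker transcripts of the rule they held. These transcripts chose the members, so their shares cannot show whether the label holds. Lamp5 was detected in 164 of 266 members (61.7%) and Ndnf in 64 (24.1%), so that 196 members held at least 1 of them. Sema3c was detected in 172 members (64.7%) and Hapln1 in 84. The most frequent combinations were Lamp5 with Sema3c in 59 members, Sema3c alone in 46, Lamp5 alone in 27 and Lamp5 with both Hapln1 and Sema3c in 27. The remaining 70 members held neither Lamp5 nor Ndnf and met the rule through Sema3c alone (46 nuclei), Hapln1 with Sema3c (19) or Hapln1 alone (5). Just inside the marker threshold, at exactly 2 marker UMIs, 107 nuclei held Npy at 283 CPM (counts per 1000000 summed UMIs of a class), Id2 at 182 and Reln at 160. Just outside it, 189 nuclei with exactly 1 marker UMI held them at 250, 88.4 and 123 CPM.

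Members were therefore divided by Ndnf and Lamp5 UMIs, a split chosen after values were seen. The first set held Ndnf (64 nuclei, 12, 21, 21 and 10 by library), the second Lamp5 without Ndnf (132 nuclei, 30, 31, 37 and 34), and the third neither (70 nuclei, 21, 15, 21 and 13). Ndnf-bearing nuclei made up 19.0% (10.3% to 30.9%), 31.3% (20.6% to 43.8%), 26.6% (17.3% to 37.7%) and 17.5% (8.75% to 29.9%) of members, with overlapping intervals. Median UMIs per nucleus were 1851, 1971.5 and 2445 in the 3 sets.

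Nuclei with Ndnf carried reelin and the receptor tyrosine kinase Kit. Reln (chromosome 5, 21884454 to 22344702, minus strand) stood at 190, 932, 399 and 1411 CPM in them by library, against 46.7, 247, 137 and 166 CPM in the nuclei with Lamp5 alone and 20.1 CPM, pooled, outside GABAergic nuclei. A Reln UMI was found in 65.6% of Ndnf-bearing nuclei, 23.5% of those with Lamp5 alone and 2.99% of nuclei outside the GABAergic ones, whose median depth was 1645 UMIs. Reln was higher with Ndnf than without it in each of the 4 libraries, but the P301S/EKO value rests on 21 UMIs in 10 nuclei, and the ranges overlap. Kit stood at 95.0, 678, 275 and 470 CPM with Ndnf and at 46.7, 58.1, 78.1 and 66.5 CPM with Lamp5 alone. Its 4 values with Ndnf all lay above its 4 values with Lamp5 alone.

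Cannabinoid receptor and chemokine transcripts also lay higher with Ndnf. Cnr1, the presynaptic cannabinoid receptor, ranged over libraries from 395 to 1209 CPM with Ndnf and from 87.1 to 166 CPM with Lamp5 alone (log2 ratio of pooled levels 2.74). Cxcl14, a secreted chemokine, ranged from 113 to 356 CPM against 39.1 to 49.9 CPM (log2 2.63). The collagen gene Col19a1 ranged from 470 to 1757 CPM against 174 to 269 CPM (log2 2.47). Of 1503 genes outside the rule with at least 50 UMIs over both sets, 38 (2.53%) had higher levels with Ndnf in all 4 libraries than with Lamp5 alone in any, and 31 (2.06%) had lower ones. The split itself used UMIs of these nuclei, so nothing is read from these counts. Ntng1, a netrin-like adhesion protein, overlapped, at 475, 593, 1484 and 403 CPM with Ndnf and 385, 479, 19.5 and 33.2 CPM with Lamp5 alone. In the set with Lamp5 alone Ntng1 was low in both libraries with the transgene and high in both without it. Outside the GABAergic nuclei it stood at 670, 712, 357 and 540 CPM.

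Nuclei with Lamp5 and no Ndnf carried the transcripts known from ivy cells. Nos1 (chromosome 5, 117781032 to 117958840) stood at 70.1, 58.1, 127 and 83.1 CPM in them. In Ndnf-bearing nuclei its only UMI was in WT. A Nos1 UMI was found in 15.9% (10.1% to 23.3%) of nuclei with Lamp5 alone and 1.56% (0.0396% to 8.40%) of those with Ndnf. It was found in 7.14% (2.36% to 15.9%) of those with neither and 2.45% of nuclei outside the GABAergic ones. Within WT the Nos1 shares were 10.0% with Lamp5 alone, 8.33% with Ndnf and 14.3% with neither, so the pooled order was not seen there. Lhx6, a transcription factor of medial ganglionic origin (chromosome 2, 36081953 to 36105408), stood at 93.4, 43.5, 147 and 83.1 CPM, and likewise had 1 UMI in Ndnf-bearing nuclei. Its level in Sst nuclei, pooled, was 61.4 CPM and in Pvalb nuclei 66.5 CPM. The P301S library gave 11 of the 21 nuclei with Nos1 and 13 of the 26 with Lhx6 in the set with Lamp5 alone.

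Nkx2-1, the factor that sets up the medial ganglionic lineage and is known to stay on in few cortical interneurons (chromosome 12, 56531958 to 56536908, minus strand), was detected most often in the same nuclei. A UMI of it was found in 15 of 132 nuclei with Lamp5 alone (11.4%, 6.50% to 18.1%), in 2 of 70 with neither marker and in 0 of 64 with Ndnf (0% to 5.60%). Among Sst nuclei a UMI was found in 0 of 287 (0% to 1.28%), and outside GABAergic nuclei in 14 of 17665 (0.0793%). At 3 counts, the limit that a count of 0 allows is 4.69% of Ndnf-bearing and 1.05% of Sst nuclei; it bounds nuclei with a UMI, not nuclei expressing the gene. By library its level with Lamp5 alone was 35.0, 14.5, 97.7 and 33.2 CPM, from 3, 1, 10 and 2 UMIs. The P301S library thus gave most of these UMIs.

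Id2, an inhibitor of basic helix-loop-helix factors, had the largest ratio among the genes without overlap that were lower with Ndnf. With Lamp5 alone it stood at 304, 290 and 440 CPM in WT, EKO and P301S and 449 CPM in P301S/EKO, against 47.5, 56.5, 68.7 and 134 CPM with Ndnf (log2 ratio of pooled levels with Ndnf over Lamp5 alone −2.48). The lowest Lamp5 value lay above the highest Ndnf value. Pde4d, a cyclic AMP phosphodiesterase, ranged from 316 to 639 CPM with Lamp5 alone and from 0 to 190 CPM with Ndnf. Serpini1, the protease inhibitor neuroserpin, ranged from 607 to 697 against 143 to 367 CPM, and the transcription factor Maf from 494 to 821 against 143 to 424 CPM. Each of these 3 was higher in every library of the Lamp5 set than in any of the Ndnf set. Npy overlapped, at 594, 1017, 110 and 336 CPM with Ndnf and 467, 523, 1348 and 682 CPM with Lamp5 alone, and 49 of the 138 Npy UMIs behind the value of 1348 were in 1 nucleus.

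The 70 nuclei with neither marker gave mixed evidence on the label. Of the 36 genes without overlap that were higher in them, the 6 with the highest ratios were Yjefn3, Trp53i11, the transcription factor gene Npas1, Cadps2, Cnr1 and the neuropeptide gene Cck. Yjefn3 stood at 687, 807, 471 and 1021 CPM in them and ranged from 38.4 to 187 CPM in the 196 members with Lamp5 or Ndnf (log2 ratio −3.17 for the latter over the former). Cnr1 stood at 717, 1548, 739 and 1488 CPM, against 192 to 474 CPM, and Cck at 870, 964, 718 and 904 CPM, against 192 to 384 CPM. Npas1 stood at 214, 202, 204 and 350 CPM, against 19.2 to 68.5 CPM. Npas1 is on both the list of neurogliaform and ivy genes and that of the caudal ganglionic eminence lineage. Trp53i11 ranged from 45.8 to 321 against 13.3 to 28.8 CPM, and Cadps2, a gene of dense-core vesicle release, from 122 to 233 against 13.3 to 109.6 CPM. An Npy UMI was found in 48.6% of the 70 nuclei, 49.5% of Sst nuclei and 6.29% of Vip nuclei. For Id2 these shares were 38.6%, 7.32% and 13.8%, and for Reln 30.0%, 28.6% and 7.55%. Median UMIs per nucleus were 2445, 2159 and 1753.

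In Vip nuclei, which the rule keeps out, pooled Cnr1 was 586 CPM, Cck 797 CPM and Npas1 183 CPM. Htr3a, a serotonin-gated channel, was 75.7 CPM in the nuclei with neither marker, 176 CPM in Vip nuclei and 15.8 CPM in those with Lamp5 alone. The members with Lamp5 or Ndnf were higher than those with neither for 84 of 2512 genes without overlap (3.34%) and lower for 36 (1.43%); again the split used these nuclei. The higher ones included the GABA-A receptor gene Gabrg3 (133 to 223 against 0 to 67.3 CPM) and the carbonic anhydrase gene Car4 (log2 2.50).

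**Figure D2:**
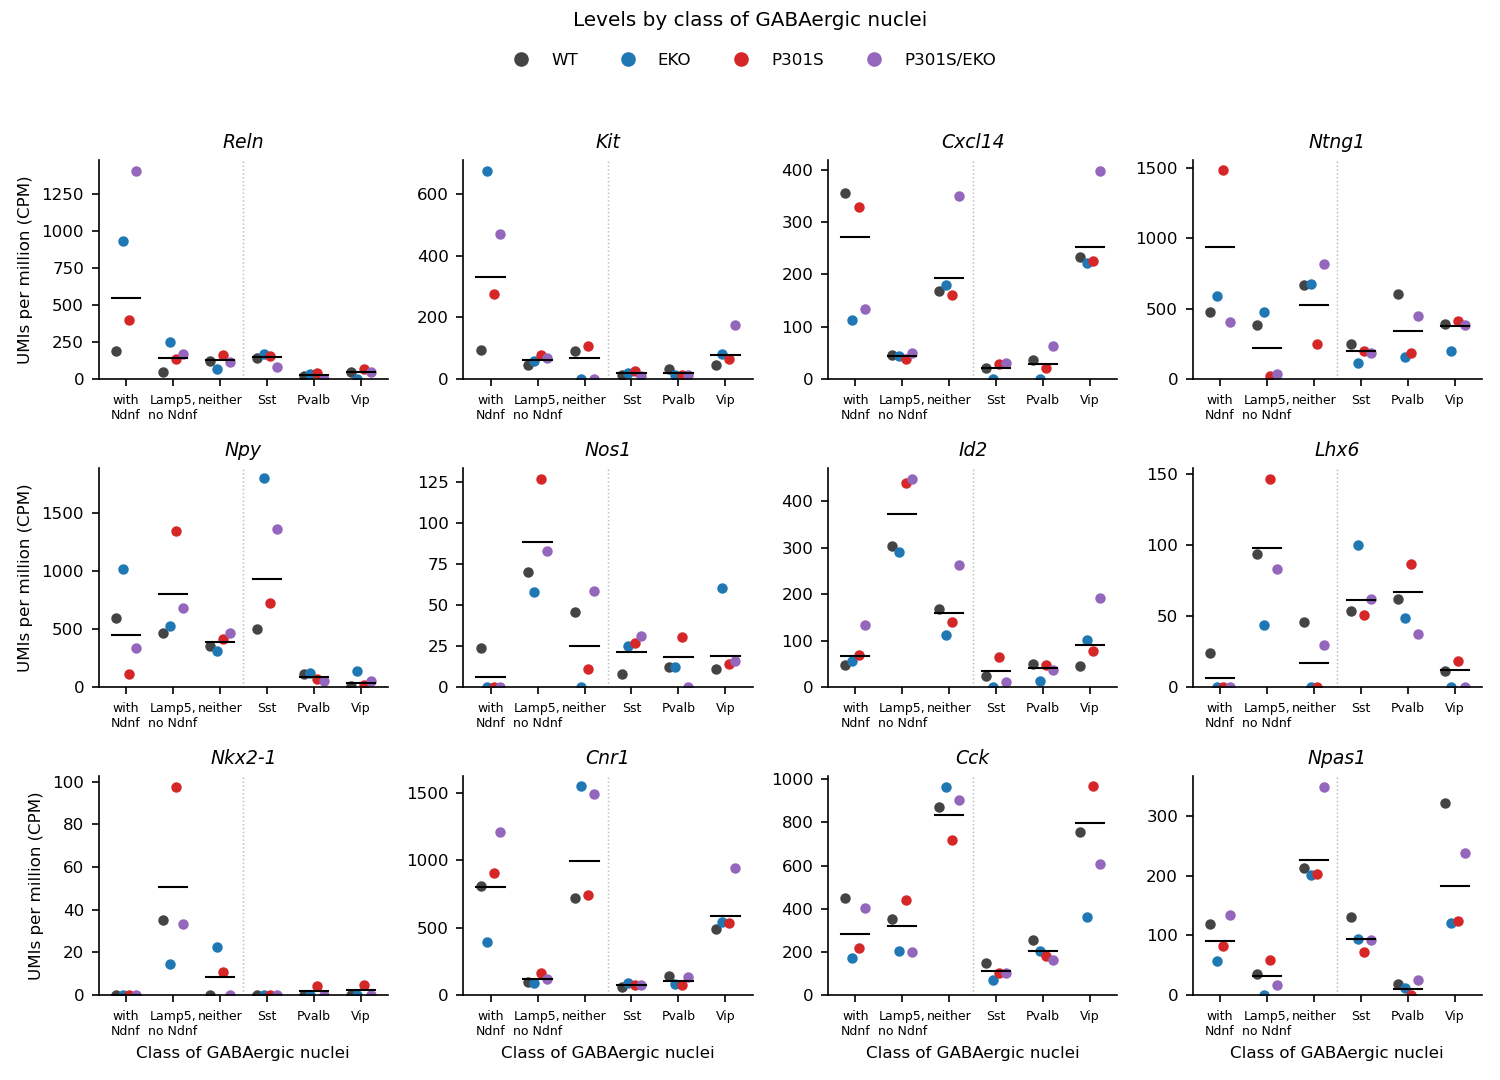
Levels of 12 genes outside the rule, in CPM, in the 3 sets of members (with Ndnf, with Lamp5 and no Ndnf, with neither) and in Sst, Pvalb and Vip nuclei. Each point is 1 pooled library, the black bar is the pooled level, and the dotted line separates members from other classes. Reln and Kit peak with Ndnf (pooled 551 and 333 CPM), Nos1, Id2, Lhx6 and Nkx2-1 with Lamp5 alone (88.3, 372, 97.8 and 50.5 CPM), and Cck and Npas1 with neither marker (833 and 227 CPM).

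Beside other GABAergic nuclei, Vcan, Cacna2d1 and Kcns3 were among the genes higher in the 266 members. Of 7052 genes, 204 (2.89%) were higher in the members of every library than in the other GABAergic nuclei of any, and 213 (3.02%) were lower. The members were chosen on these nuclei, so this describes them and tests nothing. Vcan, the matrix proteoglycan versican, ranged from 44.7 to 134 CPM in members and from 7.00 to 19.4 CPM in other GABAergic nuclei (log2 ratio of pooled levels 2.32). Cacna2d1, an auxiliary subunit of calcium channels, ranged from 212 to 343 CPM against 49.0 to 85.1 CPM (log2 1.90), and the modulatory potassium channel subunit gene Kcns3 from 48.4 to 94.0 against 14.4 to 36.4 CPM. Among the genes lower in members were Crhbp (0 to 26.1 against 82.6 to 234 CPM), Elfn1 (0 to 18.3 against 42.5 to 61.4 CPM), Rbp4 and Penk. The binding protein of corticotropin-releasing hormone (Crhbp) and the synaptic organiser Elfn1 are known from Sst cells, and Penk encodes enkephalin.

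The gap depended on the class set beside the members. Against Sst nuclei the highest ratio was that of Cnr1 (461 to 695 against 57.2 to 87.1 CPM), followed by Yjefn3, Cxcl14, Id2 and Kit. Of the 406 Cnr1 UMIs of members 236 were in the 70 nuclei with neither Lamp5 nor Ndnf, and so were 160 of the 196 Yjefn3 UMIs; with Lamp5 alone Cnr1 was 87.1 to 166 CPM. Against Vip nuclei it was that of Npy (455 to 689 against 11.1 to 141 CPM), followed by the neurexophilin gene Nxph1, Cacna2d1 and Reln. Gabrd, the delta subunit of extrasynaptic GABA-A receptors through which neurogliaform cells are known to act, had pooled levels of 54.5, 114 and 50.5 CPM in the sets with Ndnf, with Lamp5 alone and with neither, and 23.9, 104 and 28.6 CPM in Sst, Pvalb and Vip nuclei. It was thus highest in the nuclei with Lamp5 alone, with Pvalb nuclei next.

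Some transcripts known from neurogliaform cells were scarce here. Cplx3, a complexin, gave 6 UMIs over all members and the gap junction gene Gjd2 gave 13. Eya4 gave 0 of 720004 UMIs, which allows up to 4.17 CPM. At this depth their levels in the 3 sets could not be compared.

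Transcripts known from other cell types were detected in members, and their levels differed by library. At least 1 UMI of 3 excitatory genes, Slc17a7 and Neurod6 among them, was found in 56 members and at least 2 in 17. Slc17a7 was detected in 15.4% of members and 32.8% of nuclei outside the GABAergic ones. The 16 excitatory markers summed to 1376, 1101, 849 and 759 CPM in members. The 8 Cajal-Retzius markers, which include Reln and the rule gene Ndnf, summed to 274, 678, 417 and 613 CPM in members. In other GABAergic nuclei they summed to 267, 361, 318 and 268 CPM. Of these markers Trp73 gave 3 UMIs in members, Lhx1 gave 1 and Lhx5 and Nhlh2 gave 0. The 8 astrocyte markers, Apoe among them, summed to 2375, 544, 6212 and 668 CPM in members and to 1911, 241, 8517 and 645 CPM in other GABAergic nuclei. The 8 microglia markers summed to 807, 228, 1642 and 357 CPM in members, and the 8 oligodendrocyte markers to 1506, 719, 1996 and 1381 CPM. These 3 glial sums were highest in P301S. For astrocytes that order came from Apoe, which made up most of the sum in WT and P301S and is lost in EKO. With Apoe set aside, the astrocyte markers summed to similar levels by library and P301S was not the highest. The 7 oligodendrocyte precursor markers summed to 176, 181, 153 and 128 CPM, highest in EKO. They include Vcan, which gave 56 UMIs in members and lay higher there than in other GABAergic nuclei. Prox1, among the excitatory markers, is also on the list of the caudal ganglionic eminence lineage. These 2 sums can therefore hold transcripts of the members themselves.

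The transgene was read in a pair of comparisons that share no library, P301S over WT and P301S/EKO over EKO. Prnp and the paraspeckle RNA Neat1 were at least 1.5-fold higher, and the secreted factor gene Fam19a1 and the muscarinic receptor gene Chrm3 at least 1.5-fold lower, in both. Over 1436 genes with at least 50 UMIs in the first comparison, 113 (7.87%) were at least 1.5-fold higher and 99 (6.89%) lower, with a median log2 ratio of −0.02. Scaling by the median of gene ratios in place of total UMIs gave 95 higher and 136 lower. In the second, 44 of 629 genes were higher (7.00%) and 69 lower (11.0%), with a median of −0.05. Of the 624 genes with enough UMIs in both, 30 were higher in the first and 42 in the second, and 5 were higher in both (16.7% and 11.9% of those lists). Lower in both were 10, or 26.3% of 38 and 14.5% of 69.

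**Figure D3:**
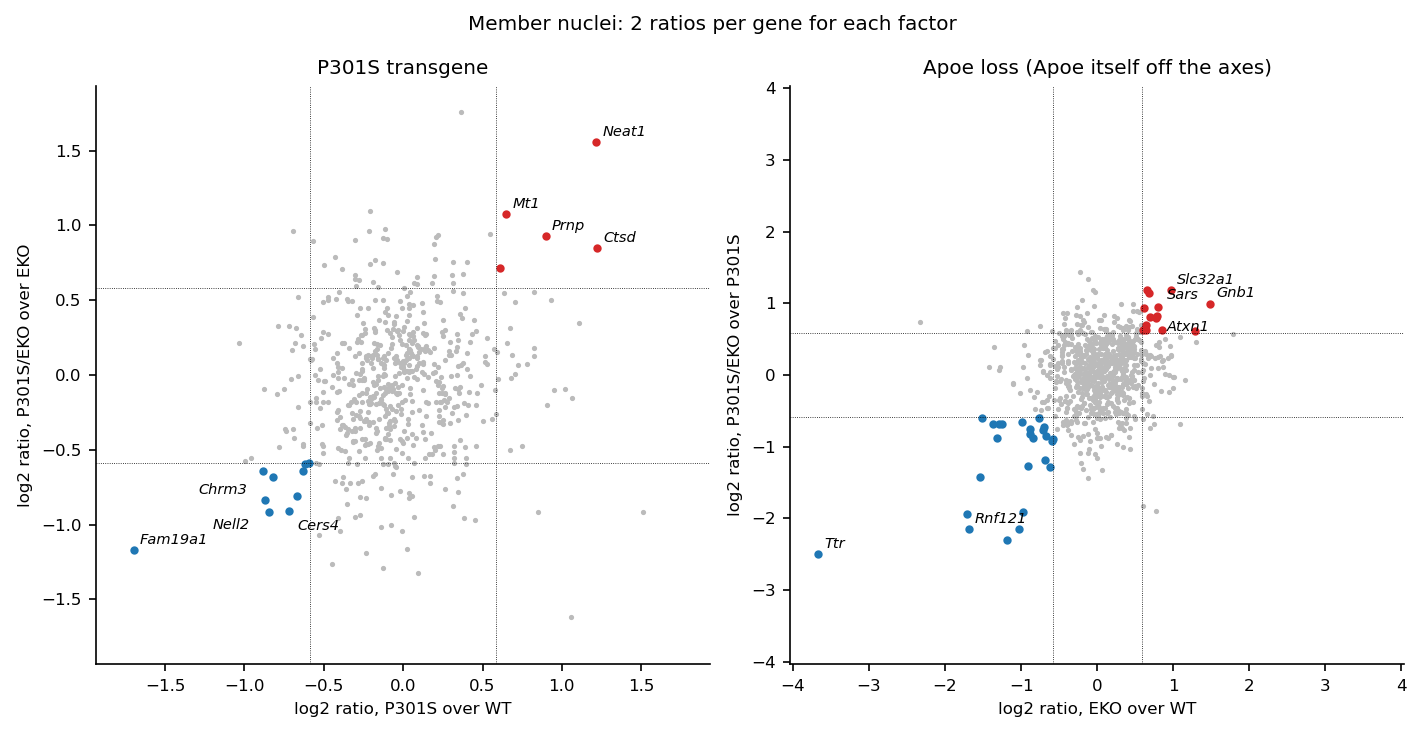
Log2 ratios of summed UMI levels in members, 1 point per gene with at least 50 UMIs in both comparisons of a factor. The left panel shows the P301S transgene without (x) and with (y) Apoe loss, the right panel Apoe loss without (x) and with (y) the transgene; dotted lines mark 1.5-fold, and red and blue points lie past it the same way in both. On the left 5 genes are red and 10 blue, with Neat1 and Fam19a1 farthest out; Apoe lies off the right panel.

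Prnp (chromosome 2, 131909928 to 131938429), the prion protein gene, stood at 264, 302, 492 and 576 CPM in members, from 51, 45, 132 and 63 UMIs. Both libraries with the transgene lay above both without it. The ratio was 1.86-fold (1.34 to 2.63) without Apoe loss and 1.91-fold (1.28 to 2.86) with it. In other GABAergic nuclei the log2 ratios were 0.63 and 0.72 and outside the GABAergic nuclei 0.76 and 0.74, against 0.90 and 0.93 in members. Mapt, the tau gene, stood at 181, 148, 264 and 284 CPM, or 1.46-fold (0.961 to 2.26) and 1.92-fold (1.08 to 3.48) higher. Reads of the human transgene may be counted with mouse Mapt or, where the transgene carries Prnp sequence, with Prnp. Neither could be checked in the counts, so the part of the transgene in both ratios was not tested. Prnp levels in Ndnf-bearing nuclei were 95.0, 311, 508 and 739 CPM, and in those with Lamp5 alone 327, 305, 459 and 549 CPM.

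Neat1 (chromosome 19, 5824708 to 5845478, minus strand), the long noncoding RNA that builds nuclear paraspeckles, stood at 254, 128, 589 and 375 CPM in members, from 49, 19, 158 and 41 UMIs. The ratios were 2.32-fold (1.68 to 3.27) and 2.94-fold (1.67 to 5.36). Its log2 ratios in other GABAergic nuclei were 1.61 and 1.04 and outside the GABAergic ones 1.85 and 0.85. Ctsd, a lysosomal protease gene, stood at 352, 188, 819 and 338 CPM (2.33-fold and 1.80-fold), and the metallothionein gene Mt1 at 171, 134, 268 and 284 CPM (1.57-fold and 2.11-fold). Both are abundant in glia, and outside the GABAergic nuclei the log2 ratios of Ctsd were 2.00 and 0.89. Mt1 stood there at 240.2, 147, 678 and 379 CPM. The part of glial RNA in these ratios was not tested. Hmgn3, a nucleosome-binding protein gene, stood at 176, 161, 268 and 265 CPM (1.52-fold and 1.65-fold), with log2 ratios of −0.13 and −0.41 in other GABAergic nuclei.

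Fam19a1 (chromosome 6, 96113154 to 96657198), which encodes a secreted chemokine-like protein of neurons, stood at 398, 329, 123 and 146 CPM in members, from 77, 49, 33 and 16 UMIs. Both libraries with the transgene lay below both without it. It was 3.24-fold lower (2.13 to 5.03) in P301S than in WT and 2.25-fold lower (1.26 to 4.24) in P301S/EKO than in EKO. Other GABAergic nuclei had log2 ratios of −1.58 and 0.65, so that only the first comparison had the same sign there. In each set both libraries with the transgene lay below both without it: 546, 311, 41.2 and 67.2 CPM with Ndnf, 397, 319, 215 and 150 CPM with Lamp5 alone and 305, 359, 85.7 and 175 CPM with neither. Fam19a1 was more abundant outside the GABAergic nuclei, at 1225, 1327, 649 and 1159 CPM. The summed excitatory markers given above were also lower in both libraries with the transgene, and their part in the result was not tested. With the 17 members holding at least 2 excitatory UMIs left out, the log2 ratio of P301S over WT was −1.89, against −1.70 with them. Members with 1 such UMI stayed in and the value covers the first comparison only, so it does not measure that part. Few nuclei carried Fam19a1 UMIs, with 27.0%, 17.9%, 13.9% and 10.5% of members holding 1 or more.

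Chrm3 (chromosome 13, 9875486 to 10360847), the muscarinic acetylcholine receptor gene whose protein excites interneurons, stood at 497, 457, 272 and 256 CPM in members, from 96, 68, 73 and 28 UMIs. It was 1.83-fold lower (1.33 to 2.51) in P301S than in WT and 1.78-fold lower (1.13 to 2.88) in P301S/EKO than in EKO. In other GABAergic nuclei the log2 ratios were −0.23 and 0.07 and outside the GABAergic ones −0.46 and 0.05, against −0.87 and −0.83 in members. Without the 17 members holding at least 2 excitatory UMIs the ratios in members were −1.05 and −0.87. The sets did not all keep the order of the libraries. With Lamp5 alone the levels were 444, 276, 127 and 183 CPM and with neither marker 473, 807, 375 and 321 CPM, but with Ndnf they were 641, 367, 344 and 403 CPM.

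A further 8 genes were lower in both comparisons. Nell2, a secreted glycoprotein gene, stood at 228, 242, 127 and 128 CPM (1.80-fold lower, 1.12 to 2.90, and 1.89-fold lower, 0.994 to 3.79). The ceramide synthase gene Cers4 stood at 233, 275, 142 and 146 CPM (1.65-fold and 1.88-fold lower). Tsc1, whose product restrains the kinase mTOR, stood at 367, 336, 231 and 192 CPM (1.59-fold and 1.75-fold lower), with log2 ratios of 0.00 and −0.23 in other GABAergic nuclei. For Cers4 and Tsc1 both libraries with the transgene lay below both without it. Log2 ratios were −0.82 and −0.68 for Inpp4a, −0.89 and −0.64 for the ciliary gene Ahi1, −0.63 and −0.64 for the calcium pump gene Atp2b1 and −0.59 in both for the actin gene Actg1.

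**Figure D4:**
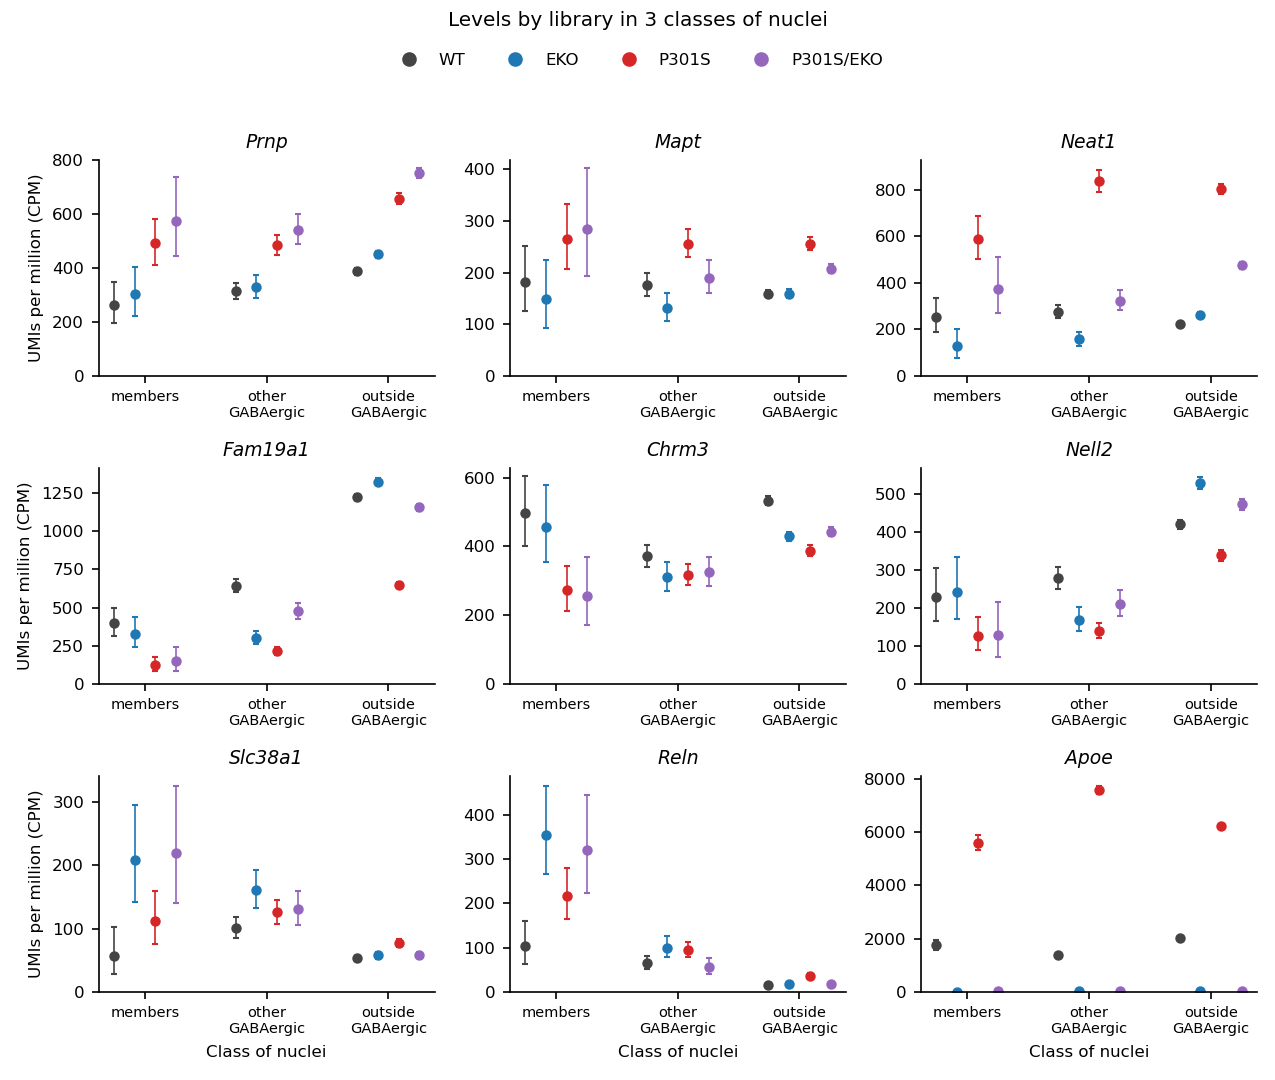
Levels of 9 genes, in CPM, by library in members, in other GABAergic nuclei and outside the GABAergic nuclei. Points are pooled libraries and bars are 95% Poisson intervals of the counts. In members Prnp is higher (492 and 576 against 264 and 302 CPM) and Chrm3 lower (272 and 256 against 497 and 457 CPM) in both libraries with the transgene.

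Some genes were past 1.5-fold in P301S over WT and were not called in both transgene comparisons. C1ql3, a secreted synaptic organiser, stood at 222 CPM in WT and 52.1 CPM in P301S members (43 and 14 UMIs), 4.27-fold lower (2.29 to 8.44), with log2 ratios of −1.75 in other GABAergic nuclei and −1.11 outside, where it stood at 342 and 158 CPM. Pam, the enzyme that amidates neuropeptides, stood at 580, 504, 283 and 585 CPM and was 2.05-fold lower (1.52 to 2.78) in P301S than in WT. P301S was the low library for Pam, and the log2 ratio was 0.07 in other GABAergic nuclei. The mitochondrial protein gene Chchd2 was 3.04-fold lower (1.64 to 5.88), the UDP-sugar receptor gene P2ry14 2.84-fold and Sh3glb2 2.78-fold.

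The highest ratios of P301S over WT included those of glial and immune transcripts. Gfap, the astrocyte filament gene, was 9.07-fold higher (3.69 to 28.9), the complement genes C4b 9.54-fold (3.51 to 36.3) and C1qa 3.17-fold, and the antigen presentation gene H2-D1 3.81-fold. Their log2 ratios were 3.50, 4.60, 2.51 and 2.11 in other GABAergic nuclei and 3.37, 3.51, 2.65 and 1.80 outside. Gfap was found in 7.94% of WT and 44.3% of P301S members and in 6.64% and 49.8% of nuclei outside the GABAergic ones. The part of free or attached glial RNA in these ratios was not tested. In P301S/EKO over EKO the myelin gene Mbp was 3.38-fold higher, with log2 ratios of 1.52 and 1.68 in the other nuclei.

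Apoe loss was read in EKO over WT and in P301S/EKO over P301S. Apoe itself (chromosome 7, 19696109 to 19699188, minus strand) stood at 1759, 6.72, 5605 and 27.4 CPM in members, from 340, 1, 1505 and 3 UMIs. It was 262-fold lower (46.7 to 10375) in EKO than in WT and 204-fold lower (69.8 to 992) in P301S/EKO than in P301S. An Apoe UMI was found in 88.9%, 1.49%, 94.9% and 5.26% of members. Outside GABAergic nuclei the shares were 75.6%, 2.57%, 98.2% and 3.06%. Detection in members was thus no higher in P301S than in the rest. In WT it was higher in members (interval 78.4% to 95.4%) than outside (74.3% to 76.8%). Over 917 genes, 80 (8.72%) were at least 1.5-fold higher in EKO than in WT and 78 (8.51%) lower. Over 1080 genes, 108 (10.0%) stood higher and 140 (13.0%) lower in P301S/EKO against P301S. Medians of the log2 ratio were 0.04 and 0.03. Of 837 genes with enough UMIs in both, 15 were higher both times (21.1% of 71 and 18.5% of 81) and 26 lower both times (38.8% of 67 and 28.3% of 92).

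Gnb1, Syt4, Dner and Shank1 were among the 15 genes higher both times without Apoe, as were Sars, Atxn1, Hnrnpm, Sec61a2 and Timp4. Gnb1, a G-protein beta subunit gene, stood at 135, 376, 119 and 238 CPM, or 2.80-fold (1.73 to 4.64) and 2.00-fold (1.14 to 3.46) higher. Both libraries without Apoe lay above both with it, and the log2 ratios in other GABAergic nuclei were 0.69 and 0.81. Syt4, a synaptotagmin gene, stood at 140, 343, 209 and 320 CPM (2.45-fold and 1.54-fold). Dner, a Notch-binding membrane protein gene, stood at 274, 470, 354 and 613 CPM (1.72-fold and 1.73-fold), with the second log2 ratio falling from 0.79 to 0.12 with Lamp5 and Ndnf as the sole markers. The postsynaptic scaffold gene Shank1 stood at 838, 1310, 838 and 1363 CPM (1.56-fold and 1.63-fold). Slc32a1 and Lamp5 were also higher both times (log2 0.97 and 1.19, and 0.68 and 1.14). These rule genes set membership, and a shallower nucleus needs a larger share of them to qualify, so nothing is read from their ratios.

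Genes lower both times without Apoe included glial, choroid plexus and sex-linked ones. Ttr, the choroid plexus transthyretin gene, had log2 ratios of −3.67 and −2.50, and 130 of its 418 UMIs in P301S were in 1 nucleus. The transferrin gene Trf had log2 ratios of −1.32 and −0.88, but the second became 0.094 with equal weight per nucleus, 0.66 with Lamp5 and Ndnf as the sole neurogliaform markers of the rule, −0.02 with the excitatory nuclei left out and −0.17 without members lacking a UMI of either. The Y-linked genes Uty, Eif2s3y and Ddx3y were also among the 26, and Xist gave 0 UMIs in members; the labels used here give no sex. Among neuronal genes Grip1, an AMPA receptor scaffold gene, stood at 212, 108, 171 and 45.7 CPM (1.97-fold and 3.75-fold lower), the second value resting on 5 UMIs. Ntrk3, the neurotrophin-3 receptor gene, had log2 ratios of −0.85 and −0.87.

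Reln was lowest in WT members, at 104, 356, 216 and 320 CPM from 20, 53, 58 and 35 UMIs. It was 3.44-fold higher (2.02 to 6.08) in EKO than in WT and 2.09-fold higher (1.24 to 3.67) in P301S than in WT, and these comparisons share the WT library. In other GABAergic nuclei the log2 ratios were 0.62 and 0.54, against 1.78 and 1.06 in members. The share of Ndnf-bearing members was 19.0% in WT and 31.3% in EKO, and its part in the result was not tested. Within Ndnf-bearing nuclei WT was lowest as well (8 UMIs), and so it was with Lamp5 alone (4 UMIs). With neither marker WT stood at 122 CPM and EKO at 67.3 CPM, the opposite order.

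Genes that make, release and take up GABA partly belong to the rule. The list of GABA synthesis, release and uptake has 10 genes. In EKO over WT 5 had enough UMIs, with 2 higher, 0 lower and a median log2 ratio of 0.47. Of all genes 8.72% were higher and 8.51% lower there. In P301S/EKO over P301S 6 had enough UMIs, with 3 higher, 0 lower and a median of 0.55. Of all genes 10.0% were higher and 13.0% lower there. Gad1, Gad2 and Slc32a1 are in the list's counts and medians and chose the members, so nothing is read from them. Of the list genes outside the rule, Slc38a1, a glutamine transporter gene, stood at 56.9, 208, 112 and 220 CPM (log2 0.97 in P301S/EKO over P301S, 0.05 in other GABAergic nuclei). Glul, glutamine synthetase, had a log2 ratio of 1.15 in EKO over WT, and 17 of its 36 UMIs in EKO were in 1 nucleus.

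In the transgene comparisons the GABA list, rule genes included, had medians of 0.13 (5 genes, 1 higher) and 0.09 (6 genes, none past 1.5-fold). The receptors that answer GABA showed no gene past 1.5-fold among 7 in P301S over WT, where 7.87% of all genes were higher and 6.89% lower. Of 8 glutamate receptor genes Grin2b was the one past 1.5-fold, at 2675, 2277, 1780 and 1820 CPM (log2 −0.59 in P301S over WT and −0.32 in P301S/EKO over EKO). The presynaptic release list had 10 genes with none past 1.5-fold and a median of 0.13, among them Snap25 at 373, 396, 406 and 421 CPM.

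Of the neurogliaform and ivy genes outside the rule, 8 of 20 had enough UMIs in P301S over WT. Reln, Kit and Npy were higher, Fam19a1 was lower, and the median was 0.18, where 7.87% of all genes were higher and 6.89% lower. Npy stood at 455, 578, 689 and 567 CPM, 1.51-fold higher (1.17 to 1.97), and 49 of its 185 UMIs in P301S were in 1 nucleus. Kit stood at 72.4, 188, 142 and 101 CPM. In P301S/EKO over EKO 5 genes of this list had enough UMIs, with Id2 higher (181 and 348 CPM, log2 0.94), Fam19a1 lower and a median of −0.15. Of all genes 7.00% were higher and 11.0% lower in that comparison. Npy had a log2 ratio of −0.03 there, so its higher level was seen in the first comparison only.

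Of 11 synaptic adhesion genes in P301S over WT 0 were higher and 2 lower, with a median of −0.12, where 6.89% of all genes were lower. Of 7 in P301S/EKO over EKO 0 were higher and 3 lower, with a median of −0.28, where 11.0% of all genes were lower. Cntnap5a, a neurexin-family adhesion gene, stood at 424, 423, 294 and 201 CPM (log2 −0.53 and −1.07). It lay lower in both libraries with the transgene. Nuclear genes of oxidative phosphorylation had opposite signs in the transgene comparisons. In P301S over WT 0 of 13 were higher and 3 lower (median −0.13), and in P301S/EKO over EKO 2 of 7 were higher and 0 lower (median 0.32), against 7.00% of all genes higher. In EKO over WT 0 of 10 were past 1.5-fold (median −0.17), and in P301S/EKO over P301S 4 of 10 were higher and 0 lower (median 0.52), against 10.0% of all genes higher. Ndufa4, a respiratory chain gene, stood at 77.6, 195, 116 and 274 CPM (log2 1.25 in P301S/EKO over P301S), and Cox8a at 305, 262, 279 and 494 CPM. The mitochondrial transcript mt-Nd1 stood at 1423, 1041, 1229 and 2232 CPM, highest in the same library.

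Of the 14 tau and microtubule genes in P301S over WT, 2 were higher (the stathmin genes Stmn3, log2 0.68, and Stmn4, log2 0.89) and 1 lower (the dynein gene Dync1h1, log2 −0.71), with a median of −0.06. Over all genes 7.87% were higher and 6.89% lower, or close to 1 in 14 each way. In P301S/EKO over EKO 2 of 10 were higher (Mapt, log2 0.94, and the tubulin gene Tubb2a, log2 0.62) and 0 lower, with a median of 0.07, against 7.00% of all genes higher. Chaperone genes numbered 6 in each comparison and had medians of −0.11, −0.17, 0.28 and −0.03 for P301S over WT, P301S/EKO over EKO, EKO over WT and P301S/EKO over P301S. Immediate early and unfolded protein response genes had too few UMIs to compare in any of the 4.

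**Figure D5:**
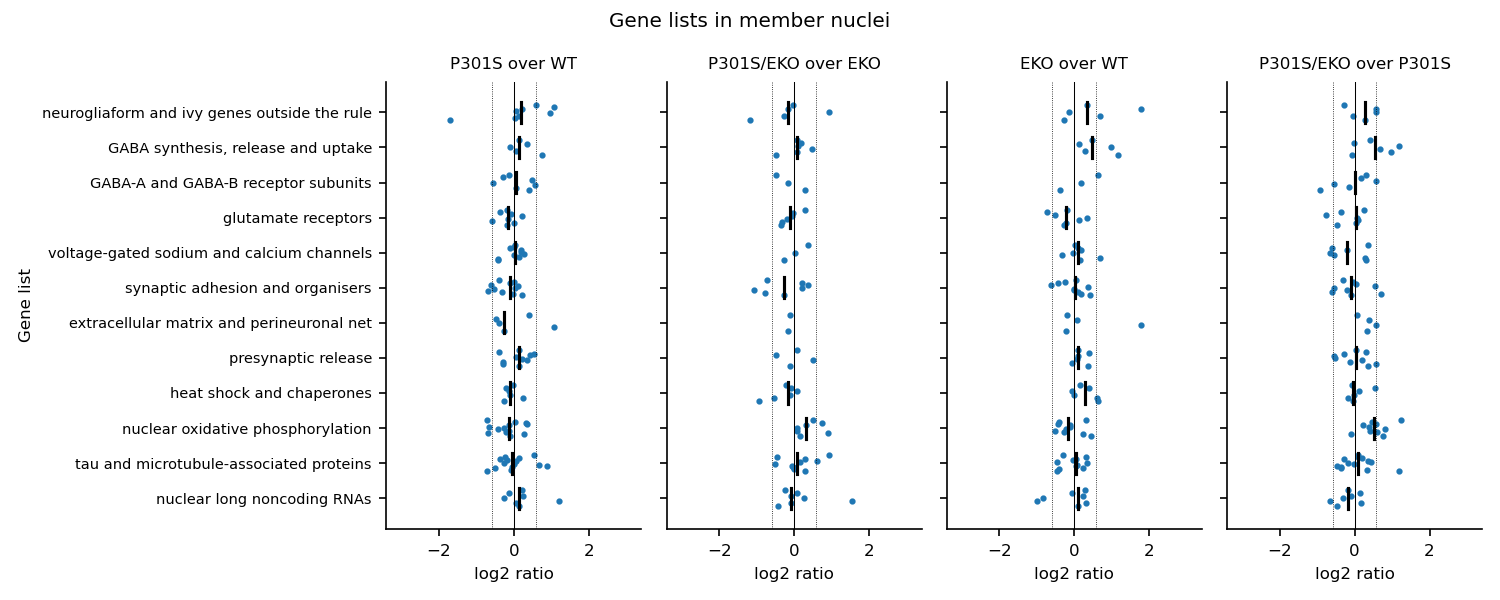
Log2 ratios in members for the 12 gene lists with at least 5 genes of 50 or more UMIs in P301S over WT, in each of the 4 comparisons. Each dot is a gene, black bars are medians where at least 5 genes could be compared, and dotted lines mark 1.5-fold. Most medians lie near 0; in P301S/EKO over P301S that of oxidative phosphorylation is 0.52, and the GABA list (0.55) holds genes that chose the members.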

How the data were processed

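The authors deposited whole-number UMI counts per gene and barcode for 27998 genes, 1 matrix per pooled library. The submitters' processing notes list Cell Ranger, Seurat and the mm10 build. Whether introns were counted, and by which versions, is not given in the sources used here. GENCODE vM21 (GRCm38) supplied the positions of genes. Groups were taken from the labels. Members, gene lists and named genes were chosen with earlier results of these data known.

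For each class and library, UMI counts of its nuclei were added up and scaled to 1000000 (CPM). Cells are not replicates, so no test was run. Differences are log2 ratios of CPM, with a sum of 0 set at 3 UMIs; genes needed at least 50 UMIs over both libraries, and 1.5-fold marked a gene as higher or lower. Genes without overlap between sets of nuclei needed at least 50 UMIs (100 beside classes such as Sst nuclei). Intervals are 95% and cover counting error only: Clopper-Pearson for shares, exact Poisson for levels, exact conditional binomial for ratios. The calculation was checked on simulated counts. The work used scanpy 1.11.5, pandas 2.3.3, scipy 1.17.1, numpy 2.4.6 and matplotlib 3.10.9 under Python 3.11.15.

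Doublets were kept: Scrublet, with an expected rate of 0.06, called 0 in each library at its own threshold. As an alternative the highest scores were removed at 0.8% per 1000 barcodes, 20 members among them.

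Of 32 gene lists with 449 distinct genes, Scn2a, Rian and Snhg14 were not matched, and some genes are not reported here. Between genotypes the text names the rule genes and markers, up to 4 genes per list and comparison, up to 8 per comparison and direction whose interval lay beyond 1.5-fold, up to 10 per factor and direction past it both times, and Apoe, Prnp and Mapt. Genes named between sets of nuclei, and per-set levels, were chosen after their values were seen. Alternatives were equal weight per nucleus, a minimum of 500 genes, removal of doublets, median-of-ratios scaling, nuclei with at least 2 UMIs of 3 excitatory genes left out, at least 20 UMIs, Lamp5 and Ndnf as the sole neurogliaform markers of the rule, and thinning to 1000 UMIs. A further one, members without a Lamp5 or Ndnf UMI left out, was added after the values were seen.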

Additional observations from a re-analysis of the deposited data

Results flagged for a closer look

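A few genes stood at least 1.5-fold apart in opposite directions in the 2 comparisons of a factor. These differences were not tested, each value compares single pooled libraries, and the transgene and Apoe comparisons share libraries. For the transgene the log2 ratios of P301S over WT and of P301S/EKO over EKO were 1.51 and −0.92 for Ptgds, a prostaglandin synthase gene, 0.85 and −0.92 for Cpt1c, a neuronal carnitine palmitoyltransferase gene, and 1.06 and −1.62 for Apod, the apolipoprotein D gene. For Stx5a, a Golgi syntaxin gene, they were −0.70 and 0.97. In EKO 37 of the 46 Apod UMIs were in 1 nucleus.

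For Apoe loss the log2 ratios of EKO over WT and of P301S/EKO over P301S were 0.60 and −1.83 for Ptgds, 1.09 and −0.68 for Cpt1c and 0.77 and −1.90 for Apod. The ribosomal gene Rpl37a had −0.75 and 0.69, the cyclin gene Ccni 0.60 and −0.61, and the peroxidase gene Gpx4 −0.59 and 0.61. For Gm26916 they were −2.32 and 0.74. The ciliary genes Cep164 and Ift20 had −0.93 and 0.62, and 0.74 and −0.68. Rps6kb1, which encodes a ribosomal S6 kinase, had 0.69 and −0.73.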

How the results depend on the processing

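Of 1214 log2 ratios of named genes recomputed under the alternatives, 1155 stayed within their counting interval, 55 left it and 4 changed sign. In P301S/EKO over P301S the ratio of Neat1 became 0.021 with equal weight per nucleus and 0.15 with Lamp5 and Ndnf as the sole markers and that of Trf 0.094 and 0.66. Where 4 shares are given they stand for WT, for EKO, for P301S and for P301S/EKO. With Lamp5 and Ndnf as the sole markers members were 0.454%, 0.531%, 1.43% and 0.556% of kept and 4.84%, 6.71%, 8.84% and 8.03% of GABAergic nuclei. Without members lacking both UMIs they were 0.763% (WT) and 1.98% (P301S) of kept and 8.12%, 12.04% and 12.2% (WT, EKO, P301S) of GABAergic nuclei. Thinned to 1000 UMIs they were 0.260%, 0.455%, 0.818% and 0.554% of nuclei and 6.93%, 9.01% and 11.6% (WT, EKO, P301S) of GABAergic nuclei. Members of the full data with at least 1000 UMIs were also thinned. An Lhx6 or Sox6 UMI was left in 5 of 61 in WT (8.20%) and 7 of 79 in P301S (8.86%). With all UMIs 19.05% of WT and 21.5% of P301S members held one.

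Gene counts moved by over 1.5 times in 25 of 64 cases, most where fewer nuclei or UMIs were asked for. Counts are given as higher and lower for P301S over WT, P301S/EKO over EKO, EKO over WT and P301S/EKO over P301S. With Lamp5 and Ndnf as the sole markers they were 63 and 45, 15 and 17, 30 and 28, and 31 and 30. With at least 20 UMIs they were 655 and 470, 285 and 369, 413 and 451, and 496 and 754. With excitatory nuclei left out 53 were lower in the first, and 69 higher and 93 lower in the last. With doublets removed 39 were lower in the second. Without members lacking both UMIs 23 were higher and 37 lower in the second, 37 lower in EKO over WT, and 64 higher and 56 lower in the last. Of 315 list medians 308 stayed close. GABA synthesis became 0.76 in P301S over WT with the sole markers, 0.72 in EKO over WT with at least 20 UMIs, and 0.75 in P301S/EKO over P301S without doublets. Adhesion became −0.77 in P301S/EKO over EKO without members lacking both UMIs. Oxidative phosphorylation in P301S/EKO over P301S became 0.66 without doublets, 0.69 with the sole markers and 0.60 without members lacking both UMIs. The cause of these shifts was not tested. No paired analysis was possible because each genotype has 1 library.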
